A study of Mus with 17 samples.

Results

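The genes described here are the numbered ligands (Tnfsf) and receptors (Tnfrsf) of the tumour necrosis factor (TNF) superfamily, taken by their symbols from the gene counts of whole mouse liver. There were 31 of them among 24937 genes with values, 11 ligands and 20 receptors. Members of the family without a number in their symbol, such as Tnf, Fas and Cd40, and the proteins that act behind the receptors were read as separate lists.

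Ligands of the TNF superfamily are mostly membrane proteins that act as trimers and can be shed from the cell surface by proteases. They bind receptors with cysteine-rich repeats, of which some carry a death domain that can start apoptosis or necroptosis, others recruit TRAF adaptors that switch on NF-kB, and a few are decoys without a working signal. In the liver the family is known for hepatocyte death, for the growth of progenitor and bile duct cells, and for the survival and stimulation of lymphocytes.

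The data are RNA-seq of whole liver, 1 library for each of 17 male C57BL6/JBomTac mice. The western diet group had 8 mice kept for 52 weeks on that diet while drinking water with 42 g/L of fructose, a regimen that the labels use to bring on advanced fatty liver disease with inflammation. The chow group had 9 mice of the same age on standard chow and plain water, and livers of both groups were taken after an overnight fast. The diets were taken from the treatment field of the labels, since the source name reads western diet for all 17 samples.

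Libraries held 3604212 to 8818385.5 counts on western diet and 5231165.5 to 9071908.5 counts on chow. Levels are given as CPM, counts scaled by the size of their library. Where a gene had 0 counts, its level could still be as high as that of 3 counts, 0.314 to 0.850 CPM depending on the library, a limit for counting error only. The summed level of 5 hepatocyte markers was 6969 to 11201 CPM on western diet and 8475 to 11876 CPM on chow, with medians of 8038 and 10601 CPM, and 2 of the 5 fell while none rose. All 3 tested neutrophil markers rose, with a summed level of 16.7 to 82.9 CPM on western diet and 5.90 to 12.4 CPM on chow. The part of both cell types in the members' rises was not tested, and none of the markers of the 10 cell types looked at was at 0 in most libraries. Western diet replicate 5 and chow replicate 2 held 4303 and 13198 CPM of pancreas transcripts, and the remaining livers 156 to 328 CPM on western diet and 152 to 560 CPM on chow. Counts of members are therefore also given without these libraries. Whole liver does not separate its cells, so a change in the number of cells of a type and a change in RNA per cell cannot be told apart.

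Western diet livers held more transcript of many family members and significantly less of none. Among the 18 members with enough counts to be tested, the receptor Tnfrsf11a (RANK) rose most, 3.83-fold, followed by the death receptor Tnfrsf10b at 3.29-fold and the B cell survival factor Tnfsf13b (BAFF) at 2.58-fold. Of these 18 of 31 members, 13 rose (quasi-likelihood test of edgeR, threshold 0.05 on the p adjusted by Benjamini-Hochberg over 13204 genes), while over all genes 48.4% passed, 24.8% as rises. The median log2 difference of the tested members was 0.81, against −0.0091 over all genes tested. At least 2-fold, 7 members rose, where 8.96% of all genes did, and in 6 members the western diet livers all lay higher than any chow liver, where 7.01% of all genes did. In no member did they all lie lower, where 5.03% of all genes did. None fell by edgeR, DESeq2 or limma-voom, none was lower at an unadjusted p under 0.05, and 23.6% of all genes fell. Without western diet replicate 5 and chow replicate 2 the rises numbered 11.

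These shares over the tested members are a description and no support by themselves, because the low count filter can be passed through the diet in which a gene is high. The filter asked for 1.5 CPM in 8 libraries, and 12 of the 18 tested members reached that in at least 8 chow libraries. The other 6, Tnfsf13b, Tnfrsf10b, Tnfrsf13c, Tnfrsf22, Tnfrsf23 and Tnfrsf26, were tested with the help of the western diet libraries. CPM are not scaled to transcript length, so levels are compared between diets and not between genes.

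**Figure D1:**
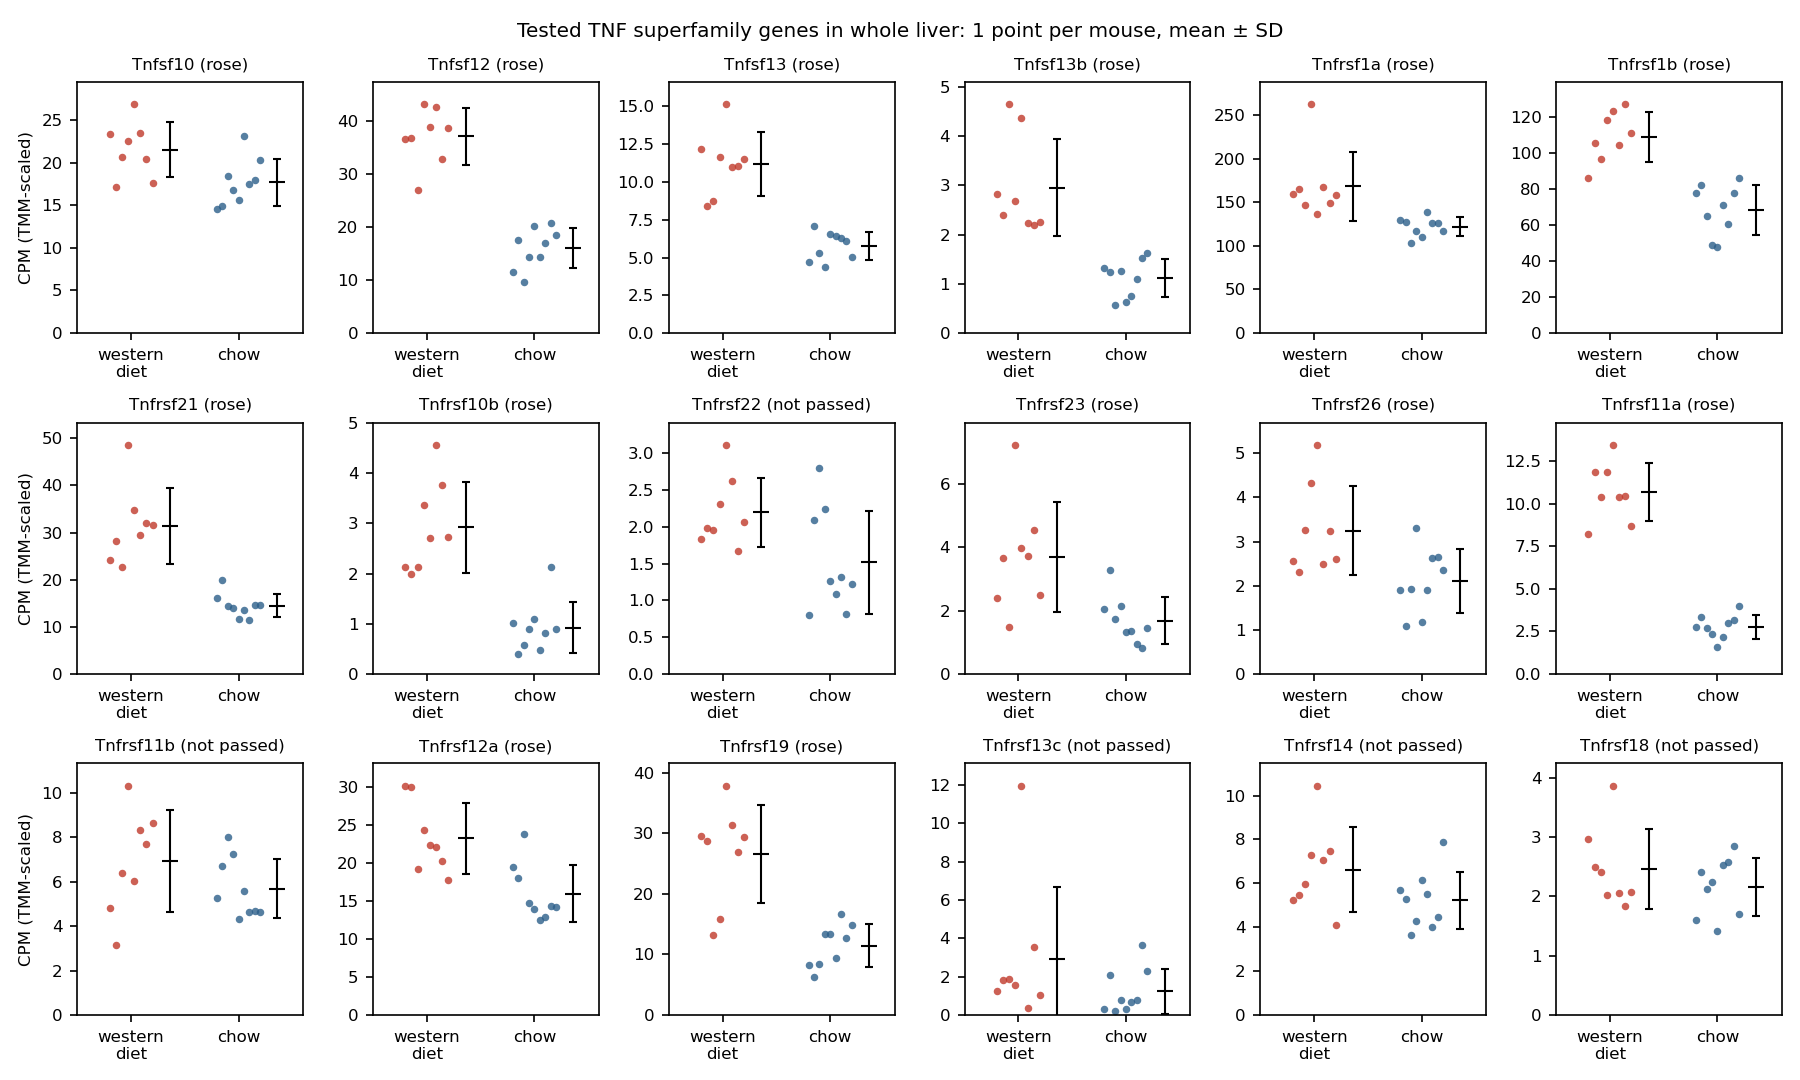
Level in CPM, scaled with TMM factors, of the 18 tested family members in each liver, with western diet left of chow, 1 point per mouse, and the mean ± SD beside the points. In Tnfsf12, Tnfsf13, Tnfsf13b, Tnfrsf1b, Tnfrsf21 and Tnfrsf11a the points of the diets do not overlap, and Tnfrsf1a has 1 western diet point at 262 CPM above all others.

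Of 11 ligands 4 were tested and all 4 rose, where 24.8% of all genes did: Tnfsf12, Tnfsf13, Tnfsf13b and Tnfsf10. Tnfsf12 encodes TWEAK, a cytokine of monocytes and macrophages that drives the growth of liver progenitor cells through its receptor Fn14. Its level was lowest at 26.9, median 37.8 and highest at 43.1 CPM on western diet, against 9.65, 16.9 and 20.8 CPM on chow. The diets did not overlap, and the rise was 2.32-fold (log2 difference 1.21 ± 0.13, ± SE, adjusted p = 3.92e-07, n = 8 and 9, edgeR).

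Tnfsf13 encodes APRIL, a soluble ligand that keeps plasma cells alive. It lay at 8.38, 11.3 and 15.1 CPM (lowest, median and highest) on western diet and at 4.40, 6.11 and 7.08 CPM on chow. Again no chow liver reached the lowest western diet liver, and the rise was 1.93-fold (log2 difference 0.95 ± 0.13, edgeR adjusted p = 7.66e-06). On the mouse assembly mm10, Tnfsf12 spans 69686240 to 69696098 and Tnfsf13 spans 69682577 to 69685554 of chromosome 11, exons and introns together. Both lie inside the annotated fusion gene Tnfsfm13 (TWE-PRIL), which was at 33.5 ± 4.28 against 15.1 ± 3.13 CPM (mean ± SD) and rose 2.21-fold, so the split of reads among these 3 genes is uncertain.

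Tnfsf13b encodes BAFF, the main survival factor of B cells. It was at 2.20, 2.55 and 4.65 CPM on western diet and at 0.579, 1.24 and 1.63 CPM on chow, again with no overlap, and rose by 1.37 ± 0.24 in log2 (edgeR adjusted p = 9.50e-05). Western diet replicates 3 and 5 stood highest, at 4.65 and 4.38 CPM, and the other western diet livers held at most 2.83 CPM. These levels rest on 10 to 38 counts per library on western diet and 3 to 10 counts on chow.

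Tnfsf10 encodes TRAIL, a ligand that can start apoptosis. It ranged over 17.2, 21.6 and 26.8 CPM on western diet and over 14.5, 17.4 and 23.1 CPM on chow, with wide overlap. The rise was the smallest of the 13, at 1.21-fold (edgeR adjusted p = 0.033), and with each library left out in turn it was called in 9 of 17 fits (adjusted p 0.00858 to 0.0752). It did not pass without western diet replicates 1, 4, 5 or 6 or chow replicates 1, 2, 4 or 5, each left out alone, nor in the fit with no low count filter (adjusted p = 0.0619).

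Markers of macrophages and dendritic cells were higher on western diet too. Of 8 macrophage markers 7 rose and their summed level was 835 to 1399.95 CPM on western diet, against 378 to 575 CPM on chow, and all 4 tested dendritic cell markers rose (37.2 to 71.4 against 11.2 to 20.1 CPM). Their part in the rise of the ligands was not tested.

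**Figure D2:**
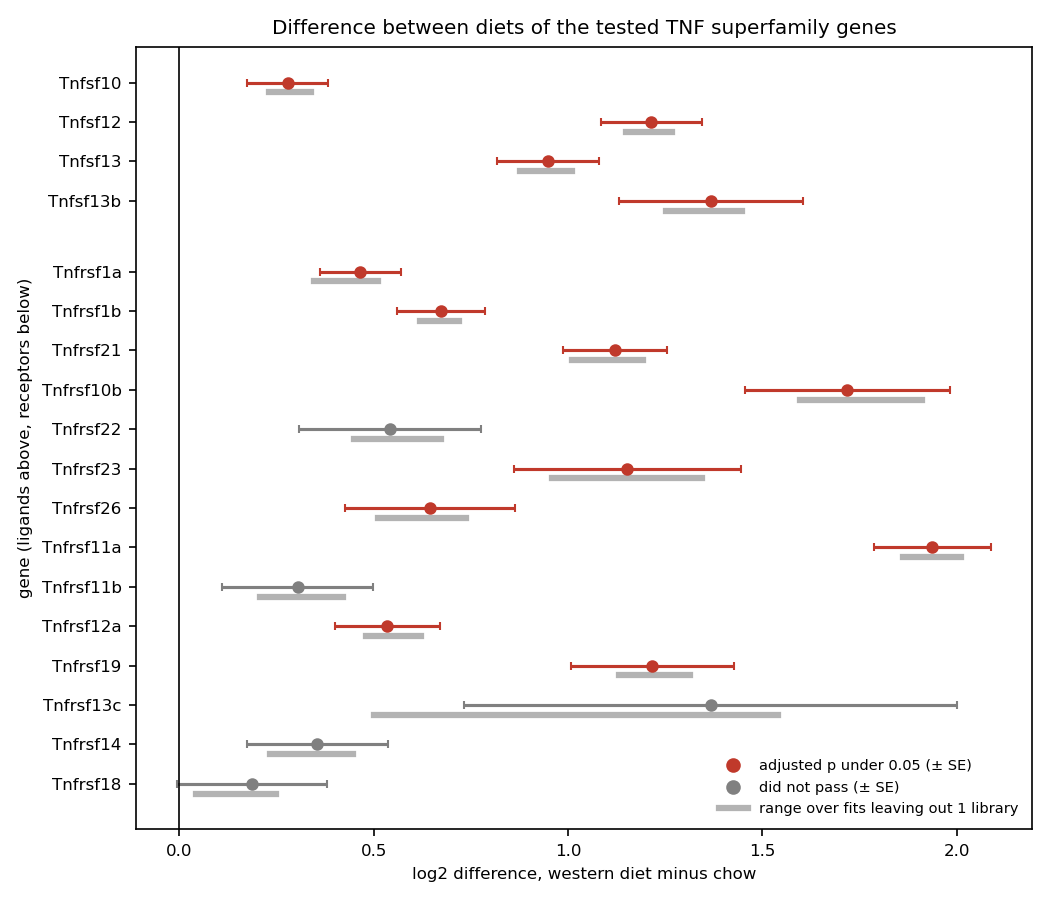
Log2 difference between western diet and chow (western diet minus chow) of the 18 tested members, ligands above receptors, with red points for adjusted p under 0.05, grey points for the others, whiskers for the SE, and grey bars for the range over fits that left out 1 library. All points lie right of 0, Tnfrsf11a farthest at 1.94, and the widest bar is that of Tnfrsf13c, 0.50 to 1.54.

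The receptors of TNF itself both rose. Tnfrsf1a, the widely expressed death domain receptor TNFR1, was at 136, 159 and 262 CPM (lowest, median and highest) on western diet and at 103, 126 and 139 CPM on chow. Western diet replicate 4 stood alone at 262 CPM, the next liver held 168 CPM, and 7 of 8 western diet livers lay above the highest chow liver. The rise was 1.38-fold (edgeR adjusted p = 0.001) and was called in all 17 fits that left out 1 library. Tnfrsf1b, the receptor TNFR2 of immune and endothelial cells, was at 86.2, 108 and 127 CPM on western diet and 48.1, 71.1 and 86.1 CPM on chow, a rise of 1.59-fold (adjusted p = 7.44e-05). The lowest western diet liver and the highest chow liver nearly touched.

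Tnfrsf21 encodes DR6, a death domain receptor best known from neurons and T cells. Its level was 22.7, 30.6 and 48.5 CPM on western diet against 11.4, 14.5 and 19.8 CPM on chow. Western diet replicate 4 was again the highest, the diets did not overlap, and the gene rose 2.18-fold (log2 difference 1.12 ± 0.13, edgeR adjusted p = 1.41e-06).

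Of the TRAIL receptors Tnfrsf10b and Tnfrsf23 rose, both from low levels. Tnfrsf10b (DR5) is the one TRAIL receptor of the mouse with a death domain. It was at 1.99, 2.72 and 4.56 CPM on western diet and at 0.389, 0.895 and 2.14 CPM on chow, and rose by 1.72 ± 0.26 in log2 (edgeR adjusted p = 2.52e-05). Chow replicate 8, at 2.14 CPM, reached into the western diet range, while the other chow livers held at most 1.1 CPM.

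Tnfrsf23 and Tnfrsf22 encode mouse decoy receptors that bind TRAIL without a death domain, and Tnfrsf26 encodes a relative next to them. The 3 genes lie side by side on chromosome 7 of mm10, Tnfrsf26 at 143607685 to 143627845, Tnfrsf22 at 143634808 to 143649675 and Tnfrsf23 at 143665807 to 143686436, and as close copies they may share reads. Tnfrsf23 was at 1.49, 3.69 and 7.22 CPM on western diet and at 0.814, 1.46 and 3.27 CPM on chow, and rose 2.22-fold (edgeR adjusted p = 0.00297). Tnfrsf26 was at 2.32, 2.93 and 5.18 CPM against 1.09, 1.93 and 3.32 CPM and rose 1.56-fold (adjusted p = 0.0201). Its call was lost without western diet replicate 5, which held the most (log2 difference 0.51, adjusted p = 0.0561). Tnfrsf22 did not pass, at 1.67, 2.03 and 3.11 CPM against 0.804, 1.26 and 2.80 CPM (log2 difference 0.54 ± 0.23, adjusted p = 0.0627), but passed with limma-voom (adjusted p = 0.0309), with 1 surrogate variable, with library size alone, and without chow replicate 2, 3 or 4.

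Tnfrsf11a, on chromosome 1 of mm10 at 105780673 to 105849444, encodes RANK, the receptor of the ligand RANKL that drives the making of osteoclasts from the macrophage lineage. It was at 8.22, 10.4 and 13.4 CPM on western diet and at 1.57, 2.78 and 3.99 CPM on chow. The lowest western diet liver held more than any chow liver, and the rise had the smallest adjusted p of the 18 tested members (log2 difference 1.94 ± 0.15, edgeR adjusted p = 9.16e-09). Over the fits that left out 1 library the difference stayed between 1.86 and 2.01.

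Tnfrsf11b encodes osteoprotegerin, a secreted decoy for RANKL and TRAIL. It did not pass, at 3.15, 7.05 and 10.3 CPM on western diet against 4.33, 5.26 and 8.01 CPM on chow (log2 difference 0.31 ± 0.19, edgeR adjusted p = 0.205). The lowest western diet liver, replicate 2, lay below all chow livers, and without it the gene passed (log2 difference 0.42, adjusted p = 0.0476). RANKL itself, Tnfsf11, was not tested, with 0 to 12 counts per library on western diet and 0 to 4 on chow.

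Ratios between members within a library do not depend on scaling. The 4 given here were chosen after the members' values were seen, so they are a description with no test, and since counts are not scaled to transcript length only the difference between diets can be read, not the size of a ratio. Counts of Tnfrsf11a over Tnfrsf11b were at a ratio of 1.01, 1.49 and 3.76 (lowest, median and highest) on western diet and of 0.321, 0.5 and 0.860 on chow, with no overlap. Tnfsf12 over its receptor Tnfrsf12a stood at 1.22, 1.68 and 2.19 on western diet against 0.407, 1.15 and 1.45 on chow, and 5 of 8 western diet livers lay above all chow livers.

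The other 2 ratios overlapped widely. Tnfrsf1b over Tnfrsf1a was at 0.453, 0.650 and 0.906 on western diet against 0.417, 0.603 and 0.738 on chow. Tnfrsf10b over the summed decoys Tnfrsf22 and Tnfrsf23 was at 0.353, 0.549 and 0.717 on western diet against 0.0725, 0.333 and 1.31 on chow. Chow replicate 8 made up the upper end on chow, where the next liver was at 0.424.

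**Figure D3:**
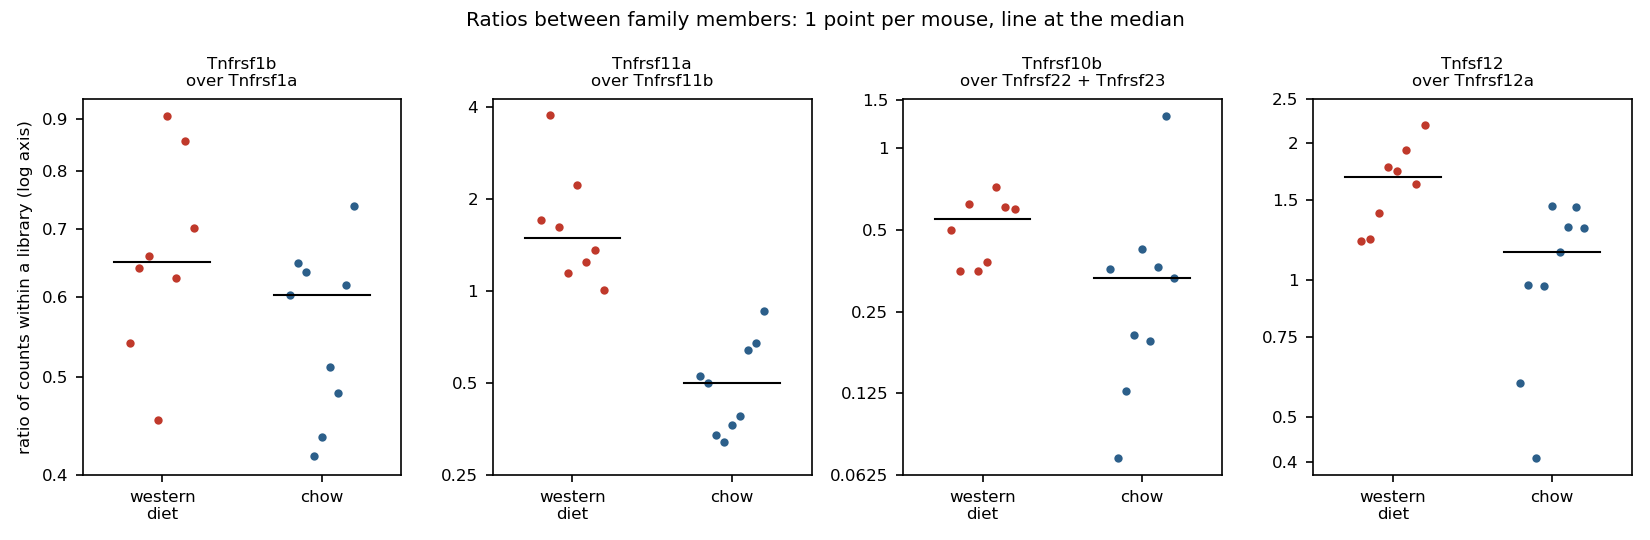
Ratio of counts between family members within a library (log axis) for 4 ratios, among them Tnfrsf10b over the sum of Tnfrsf22 and Tnfrsf23. Western diet is left of chow, with 1 point per mouse and a line at the median. Only the ratio of Tnfrsf11a over Tnfrsf11b separates all western diet livers (at least 1.01) from all chow livers (at most 0.860).

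Tnfrsf12a encodes Fn14, the small TWEAK receptor that injured hepatocytes and progenitor cells carry. It lay at 17.7, 22.2 and 30.0 CPM on western diet and at 12.4, 14.4 and 23.7 CPM on chow, and rose 1.45-fold (edgeR adjusted p = 0.00291). Chow replicate 3 stood highest on chow, and 3 of 8 western diet livers lay above it. The gene overlaps Hcfc1r1 on chromosome 17, which was at 36.8 ± 7.94 against 34.5 ± 2.95 CPM (mean ± SD, adjusted p = 0.509), so shared reads cannot be told apart.

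Tnfrsf19 encodes TROY, a receptor of epithelial progenitors that is also a target of Wnt signalling. It was at 13.2, 29.1 and 37.8 CPM on western diet and at 6.22, 12.7 and 16.7 CPM on chow, a rise of 1.22 ± 0.21 in log2 (edgeR adjusted p = 1.12e-04). Western diet replicates 3 and 4, at 13.2 and 15.9 CPM, lay within the chow range, and the other 6 lay above it. All 5 bile duct markers rose, with a summed level of 194 to 514 CPM on western diet and 72.6 to 133 CPM on chow. Among western diet livers this sum was lowest in replicate 3 and highest in replicate 4. Of the 6 stellate cell and fibroblast markers 5 rose (619 to 929 against 449 to 562 CPM). The part of these cells in the rises of Tnfrsf12a and Tnfrsf19 was not tested.

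Another 3 tested receptors of lymphocytes did not pass. Tnfrsf13c encodes the BAFF receptor of B cells. It was at 0.385, 1.68 and 11.9 CPM on western diet and at 0.193, 0.770 and 3.66 CPM on chow (log2 difference 1.37 ± 0.63, edgeR adjusted p = 0.0839). Western diet replicate 5 alone held 11.9 CPM, and without it the log2 difference was 0.50 (adjusted p = 0.454). Without western diet replicate 6, the lowest, the gene passed (1.54, adjusted p = 0.0460).

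Tnfrsf14 (HVEM), which binds LIGHT and the inhibitory receptor BTLA, was at 4.09, 6.50 and 10.4 CPM on western diet against 3.67, 5.29 and 7.89 CPM on chow (adjusted p = 0.113, edgeR). It passed with library size alone (adjusted p = 0.0421), without western diet replicate 8 and without chow replicate 9. Tnfrsf18 (GITR), a receptor of regulatory T cells, was at 1.83, 2.24 and 3.86 CPM against 1.42, 2.24 and 2.85 CPM (adjusted p = 0.446). The highest liver of both genes was western diet replicate 5.

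The other 13 members, 7 ligands and 6 receptors, did not pass the low count filter. Most act between T cells, B cells and the cells that present antigen to them. Tnfrsf9 (4-1BB), a costimulator of activated T cells, had 2 to 29 counts per library on western diet and 0 to 7.5 on chow. Tnfrsf4 (OX40), a costimulator of helper T cells, had 4 to 34 counts against 1 to 11.5, and Tnfsf8 (CD30 ligand) 0.5 to 41 against 0.5 to 8.5. Tnfsf14 (LIGHT), the ligand of HVEM, had 1.5 to 17 counts against 2 to 7.5. Summed over a diet, Tnfrsf25 (DR3), Tnfrsf13b (TACI), Tnfsf9 (4-1BB ligand) and Tnfsf11 had 23 to 40 counts in the 8 western diet livers and 7 to 22.5 in the 9 chow livers. Tnfsf15 (TL1A), the ligand of DR3, was the one of the 31 members whose mean CPM was not higher on western diet, with 17 against 22 counts. Tnfsf18 (GITR ligand) had 14.5 against 2.5 counts, Tnfrsf17 (BCMA) 12 against 4, Tnfrsf8 (CD30) 8.5 against 4, and Tnfsf4 (OX40 ligand) 7.5 against 6.

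Other fits, in which genes below the main filter were tested, called 3 of these. DESeq2 called Tnfrsf9 (log2 difference 2.01, adjusted p = 0.0102) and Tnfsf18 (2.53, adjusted p = 0.0215), and edgeR with no filter called the same genes. With a filter of 1 CPM in 8 libraries edgeR called Tnfrsf4 (0.94, adjusted p = 0.0475), which did not pass with DESeq2 (adjusted p = 0.0659). Tnfrsf4 was also called by edgeR without western diet replicate 2 or without western diet replicate 3. It did not pass by edgeR with doubled counts (adjusted p = 0.0537) or with no filter (adjusted p = 0.0683). At 0 to 3 counts per western diet library and 0 to 1 per chow library, Tnfsf18 lies at the limit that this depth can show.

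Western diet replicate 5 held the highest level of 15 of the 31 members, 6 of them among the untested, and chow replicate 8 held the highest chow level of 10. Among these were Tnfrsf13c, Tnfrsf13b, Tnfrsf18, Tnfsf8, Tnfrsf9 and Tnfsf11, which both libraries held most within their diet. The summed level of 8 B and plasma cell markers was 51.1 to 196 CPM in the other western diet livers and 449 CPM in western diet replicate 5, and 20.6 to 122 CPM in the other chow livers and 257 CPM in chow replicate 8. That of 9 T and natural killer cell markers was 110 CPM in western diet replicate 5 against at most 47.9 CPM in the other western diet livers, and 24.8 CPM in chow replicate 8 against at most 19.2 CPM in the other chow livers. Only 1 of the 8 B and plasma cell markers rose, and all 6 tested T and natural killer cell markers did. Western diet replicate 5 also held 4303 CPM of pancreas transcripts, while chow replicate 8 held 239 CPM. Chow replicate 2, with 13198 CPM of pancreas transcripts, held the highest chow level of 5 of the 31 members, Tnfrsf4 and Tnfrsf25 among them. The part of lymphocytes and of pancreas tissue in the levels of the lymphocyte members was not tested.

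Livers on western diet also differed in how far they moved. Over the 13 members that rose, the distance of western diet replicate 3 from the chow mean had a median of 51.4% of that of the remaining western diet livers, and for western diet replicate 5 it was 142%. Replicate 3 held little Tnfrsf19 and Tnfrsf23 but the most Tnfsf13b.

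**Figure D4:**
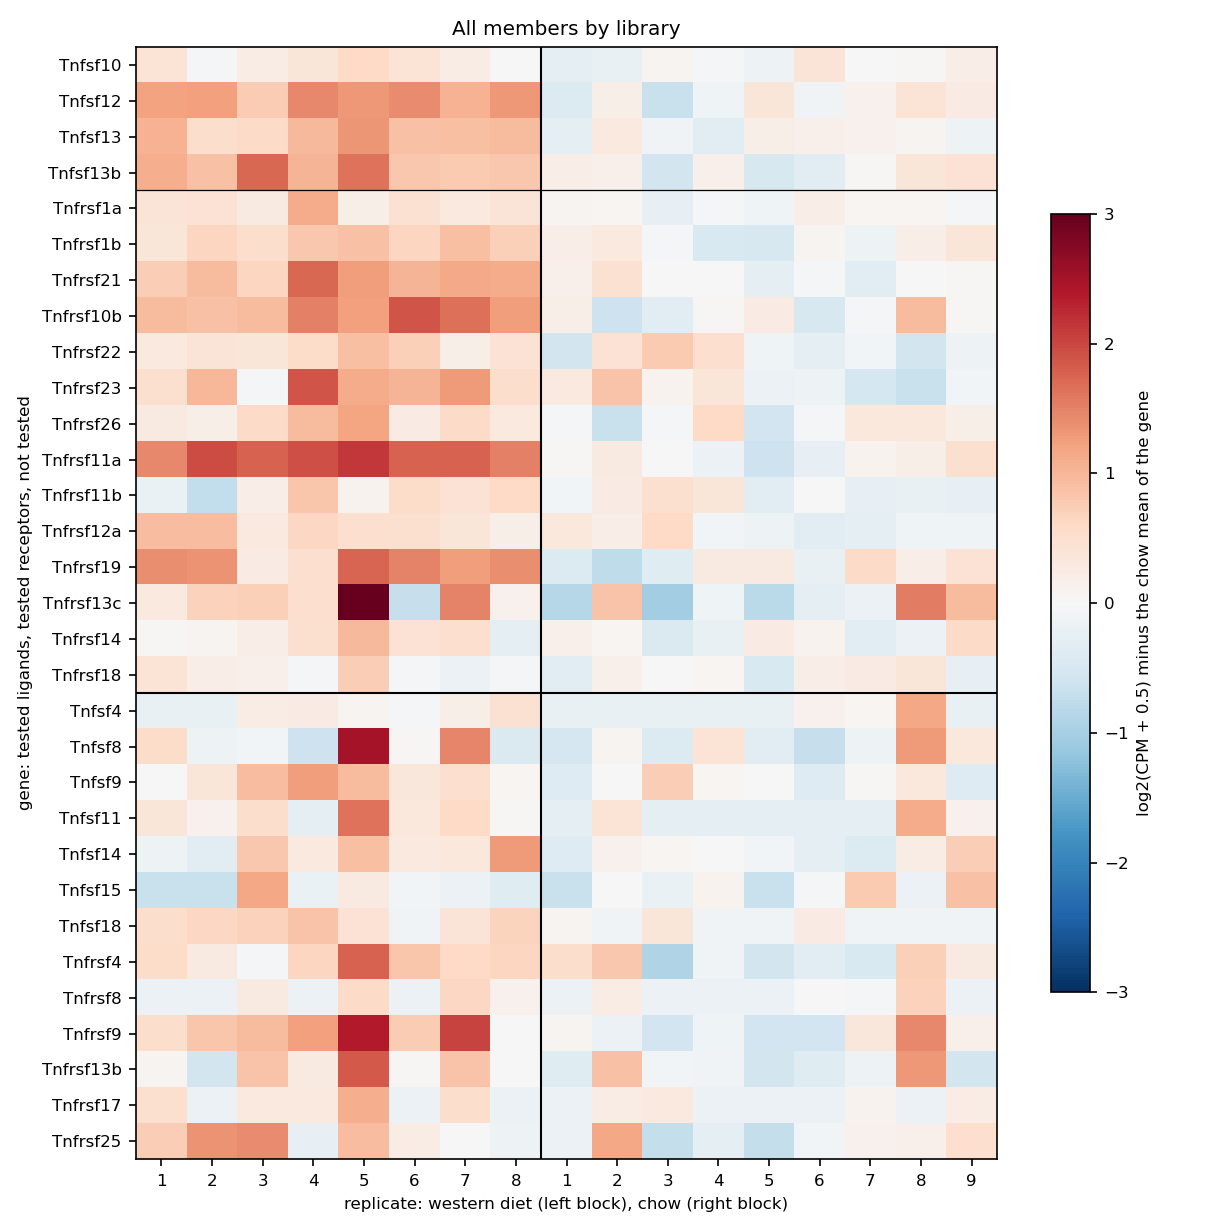
Level of all 31 members in each library as log2(CPM + 0.5) minus the chow mean of the gene, western diet libraries left and chow libraries right, tested ligands on top, tested receptors next and untested members at the bottom. Tnfrsf11a and Tnfsf12 are raised across all 8 western diet columns, while Tnfrsf13c, Tnfsf8 and Tnfrsf9 are darkest in western diet replicate 5 and, among chow livers, in replicate 8.

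Whether a ligand and its receptor varied together between mice of a diet was asked for 6 known pairs in which both genes were tested, of 20 listed. None of the 12 relations passed after adjustment (log2 of CPM plus 0.1, exact permutation over all orders, two-sided, adjusted over the 12). Over 8 western diet livers r lay between 0.22 and 0.62. Within chow (n = 9), Tnfsf12 and Tnfrsf12a ran against each other (Pearson r = −0.71, exact permutation p = 0.0314, adjusted p = 0.189, Spearman rho = −0.48 with p = 0.194), and r was 0.20 without the 2 livers farthest from the median of Tnfsf12. Tnfsf13b and Tnfrsf13c ran together in chow (r = 0.75, exact permutation p = 0.0232, adjusted p = 0.189, rho = 0.72 with p = 0.0369; r = 0.51 without the 2 livers farthest from the median of Tnfsf13b). In western diet livers r was 0.28 and 0.55 for the same pairs (exact permutation, adjusted p = 0.801 and 0.502).

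Members of the family without a number moved in the same direction where they passed. Of 7 ligands 2 were tested and both rose, where 24.8% of all genes rose and 23.6% fell. With 2 genes this count is a description. Ectodysplasin Eda, a ligand of skin appendages, rose by 1.44 ± 0.17 in log2 (11.7 ± 1.92 against 4.32 ± 1.33 CPM, mean ± SD, edgeR adjusted p = 1.32e-06). Lymphotoxin Ltb rose by 1.23 ± 0.39 (edgeR adjusted p = 0.0155), and 2 of 8 western diet livers lay above the highest chow liver. With 1 library left out, the log2 difference of Ltb was 0.77 to 1.43 (edgeR adjusted p at most 0.0470). Western diet replicate 5 held the most Ltb, 29.5 CPM, against at most 10.3 CPM in the other western diet livers and 9.87 CPM in the highest chow liver. Tnf, the name-giving cytokine, was not tested at 1.54 ± 0.584 against 0.955 ± 0.436 CPM (mean ± SD). Lta, Fasl, Cd40lg and Cd70 were not tested either.

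Of the 8 unnumbered receptors 7 were tested, 4 rose and none fell, where 24.8% of all genes rose and 23.6% fell. As 3 of the 4, Eda2r, Cd40 and Relt, reached the filter's level in fewer than 8 chow livers and were tested with the help of the western diet livers, this count is a description. Eda2r, the receptor of an ectodysplasin isoform and a target of p53, rose 3.58-fold (4.79 ± 1.23 against 1.32 ± 0.762 CPM, edgeR adjusted p = 6.30e-06). Cd40, the receptor of B cells and macrophages for T cell help, rose 2.57-fold (4.04 ± 1.75 against 1.58 ± 0.455 CPM) with no overlap, Relt rose 2.42-fold, and the nerve growth factor receptor Ngfr, which stellate cells carry, rose 1.61-fold. Western diet replicate 5 held 8.35 CPM of Cd40, against at most 3.75 CPM in the other western diet livers. Over the fits that left out 1 library the log2 difference of Cd40 was 1.12 to 1.44. Fas, the receptor of Fas ligand on hepatocytes, did not pass, at 35.5 ± 4.38 against 34.8 ± 4.72 CPM (adjusted p = 0.787), nor did the lymphotoxin receptor Ltbr (log2 difference −0.12) or Cd27 (0.52).

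Of 15 adaptors and ubiquitin ligases that act behind the receptors 5 rose and 3 fell, with a median log2 difference of 0.059. These shares are near those of all genes, of which 24.8% rose and 23.6% fell. Traf1, an adaptor that NF-kB induces, rose by 1.34 in log2, and Birc3 and Birc2, the ubiquitin ligases cIAP2 and cIAP1, rose by 0.60 and 0.42. Western diet replicate 5 held 10.3 CPM of Traf1, against at most 5.29 CPM in the other western diet livers. Traf4 fell to 61.6 ± 7.32 CPM on western diet, against 86.6 ± 6.20 CPM on chow (mean ± SD, edgeR adjusted p = 8.30e-06), Traf6 to 38.7 ± 2.70 against 51.6 ± 5.31 CPM, and the caspase inhibitor Xiap fell by 0.33 in log2. Scaled by library size alone, 8 of the 15 rose and 2 fell, and Xiap did not pass.

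Among 10 genes of death signalling 6 rose and 1 fell (median log2 difference 0.34), where 24.8% of all genes rose and 23.6% fell. Mlkl, which ruptures the membrane in necroptosis, rose 3.17-fold to 19.2 ± 4.80 CPM on western diet, against 5.99 ± 1.14 CPM on chow (edgeR adjusted p = 3.16e-08), and its kinase Ripk3 rose by 0.93 in log2. Bak1 and Bax, which open the mitochondrial membrane in apoptosis, rose by 0.57 and 0.44. Cflar, the inhibitor of caspase-8 at death receptors, fell by 0.34 but did not pass with library size alone. Bid, which links caspase-8 to mitochondria and is named after its values were seen, passed narrowly (adjusted p = 0.0462) and was called in 7 of 17 fits with 1 library left out. Without western diet replicate 5 and chow replicate 2, 5 of the 10 rose.

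Of 13 NF-kB kinases and subunits 4 rose and 5 fell (median log2 difference 0.062), where 24.8% of all genes rose and 23.6% fell. Relb and Nfkb2 encode partner subunits of the non-canonical pathway. Relb was at 19.5 ± 4.08 CPM on western diet and 7.59 ± 1.90 CPM on chow (log2 difference 1.36 ± 0.15, edgeR adjusted p = 4.67e-07), and Nfkb2 at 41.5 ± 5.63 against 18.7 ± 4.11 CPM (1.15 ± 0.12). Map3k14, the kinase NIK that starts this pathway, rose by 0.62, while Chuk, the kinase IKK alpha that acts next in it, fell by 0.54 (adjusted p = 7.45e-05). The canonical subunit Nfkb1 rose by 0.39. Map3k7, Tab3 and Tab2 fell by 0.43, 0.41 and 0.26, and in Map3k7 every western diet liver lay below every chow liver. Nfkb1, Map3k7, Tab3, Tab2 and Chuk were named after their values were seen. Ikbkg, the scaffold NEMO of the canonical kinase, was lower, at 144 ± 13 against 224 ± 59.6 CPM (adjusted p = 6.35e-04). With library size alone 6 rose and 4 fell.

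Inhibitors and deubiquitinases of NF-kB rose in 7 of 10 and fell in 1 (median log2 difference 0.34), where 24.8% of all genes rose, and DESeq2 and the fit without western diet replicate 5 and chow replicate 2 each called 5 rises. Tnfaip3 (A20), which ends TNF signalling, was at 29.7 ± 8.07 CPM on western diet and 9.60 ± 2.59 CPM on chow (edgeR adjusted p = 2.17e-07). Nfkbid, Nfkbie and Tnip1 rose by 1.36, 0.91 and 0.84 in log2, and the linear chain deubiquitinase Otulin fell by 0.31. Of 17 known NF-kB target genes 12 were tested, 11 rose and 1 fell (median log2 difference 1.84). Over all genes 24.8% rose and 23.6% fell. The lists were chosen with earlier results of these data known, so such counts are a description. Lcn2, an iron-binding acute phase protein, was at 186 ± 181 against 13.2 ± 7.25 CPM, the chemokine Ccl2 at 10.9 ± 5.34 against 1.47 ± 0.839 CPM, and the survival gene Bcl2a1b at 11.2 ± 3.70 against 2.16 ± 0.808 CPM. Saa2, an acute phase protein, rose by 2.80 in log2, and Sod2, a mitochondrial enzyme, fell by 0.31. Western diet replicate 4 held 864 CPM of Saa2 (next western diet liver 191 CPM) and 623 CPM of Lcn2 (next 209 CPM), and without it the log2 differences were 1.98 for Saa2 and 3.22 for Lcn2. Of the named signalling genes Traf1, Nfkbid, Ccl2 and Bcl2a1b reached the filter's level in fewer than 8 chow livers.

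The proteases and helpers that shed the ligands and receptors rose in 4 of 5 and fell in 1, where 24.8% of all genes rose and 23.6% fell. Rhbdf1 and Rhbdf2, the iRhom proteins that bring the TNF convertase to the surface, rose by 0.57 and 0.55 in log2, Adam17, that convertase, by 0.36, and Adam10 by 0.31 (edgeR adjusted p = 0.00445, 1.97e-04, 2.92e-04 and 0.00413). Furin, which cuts BAFF and APRIL, fell by 0.30 but did not pass with library size alone. Over all genes 3271 rose and 3122 fell, 51.2% of the calls as rises. With library size alone 4485 rose and 1615 fell, 73.5% as rises, and the median log2 difference over all genes was 0.12, against −0.0091 with TMM factors.

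**Figure D5:**
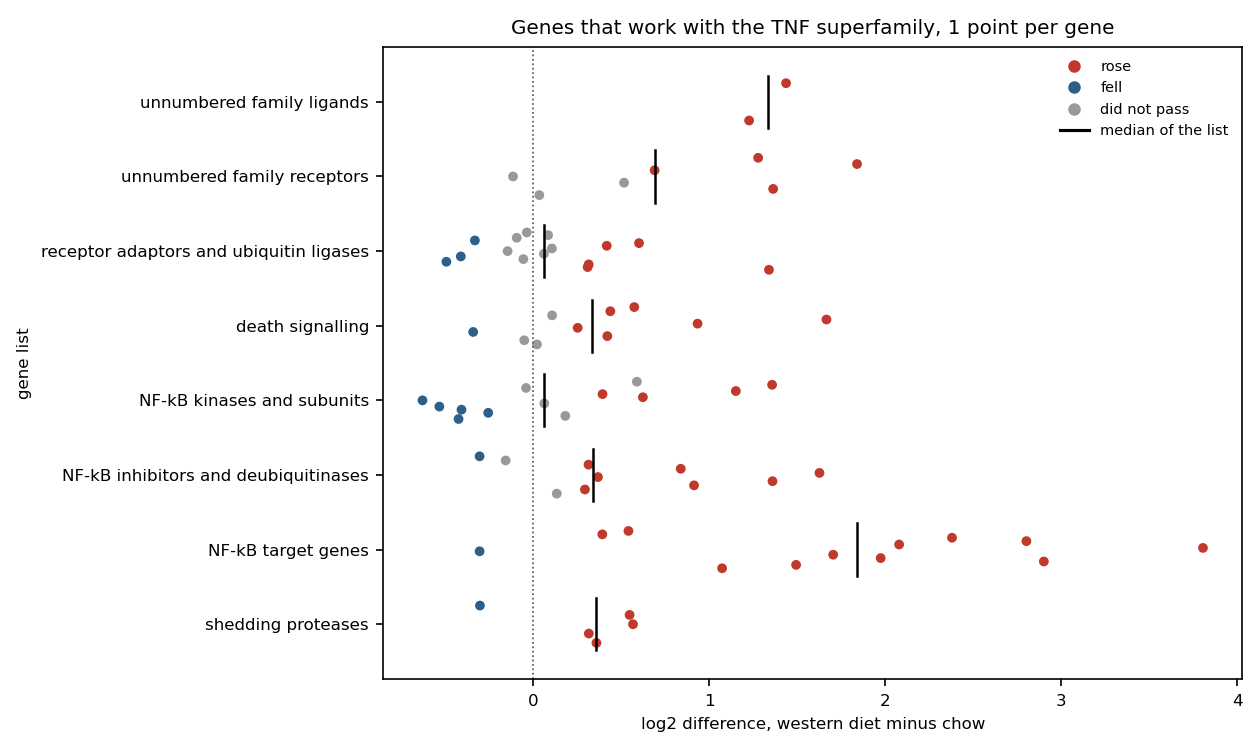
Log2 difference between western diet and chow (western diet minus chow) for each tested gene in 8 lists of unnumbered members and signalling genes, 1 point per gene (red rose, blue fell, grey did not pass) and a line at the list's median. NF-kB target genes lie farthest right with a median of 1.84, and the adaptors and the NF-kB kinases and subunits spread to both sides of 0. The lists were chosen with earlier results of these data known.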

How the data were processed

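Liver RNA-seq of 17 mice was analysed. The authors deposited expected counts per gene (in steps of 0.5), 1 table per library of 24940 genes, 3 with no value. Reads went through STAR 2.4.1c, HOMER, FastQC and MultiQC on mm10, per the submitters' processing notes; for options, strand and annotation: not given in the sources used here. Groups follow the treatment label, 8 western diet and 9 chow. The labels name no batch, and p-values rest on the spread between mice. No libraries were alike (lowest chi-square per degree of freedom between libraries of a diet 5.01 on western diet and 3.85 on chow).

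Counts were rounded to whole numbers and fitted with edgeR 4.0.16 (R 4.3.3): TMM factors, filterByExpr (13204 of 24937 genes kept), prior count 0.125, quasi-likelihood test of diet with no covariate, Benjamini-Hochberg adjusted p under 0.05. The SE is the log2 difference over the root of F. The biological coefficient of variation was 19.0%. The procedure was tested on simulated data. CPM shown are scaled with TMM factors.

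Alternatives were RLE factors, library size alone, DESeq2 1.42.0, limma-voom 3.58.1, no filter, 1 CPM in 8 libraries, doubled counts, 1 surrogate variable (sva 3.50.0), leaving out each library, and leaving out western diet replicate 5 with chow replicate 2. Permutation tests ran in numpy 2.4.6 on Python 3.11.15 with ranks from scipy 1.17.1, tables in pandas 2.3.3, and plots in matplotlib 3.10.9.

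All members are accounted for. Those past the threshold with a log2 difference of at least 1, or that did not pass, were to be described in full; of other lists, up to 4 with the largest differences and those against the majority. Members and lists were chosen with earlier results of these data known. Coordinates come from a RefSeq table of GRCm38.p6, the assembly of mm10, which matched 31 of 31 members; 10 overlap another annotated gene, and reads of such genes may be shared.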

Additional observations from a re-analysis of the deposited data

Results flagged for a closer look

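In 70 sets of values (each member and each ratio in each diet), 19 had 1 library far from all others of its diet, by the gap to the nearest library over the range of the diet. Chance flags about 1 in 20 sets where values are normally distributed, and the share for values of a few counts per library was not tested. Values are CPM unless a ratio is named.

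Western diet replicate 5 stood apart in 6 sets. It held 11.9 of Tnfrsf13c (next western diet liver 3.56), 2.13 of Tnfrsf13b (next 0.837), 0.691 of Tnfrsf17 (next 0.314), 3.91 of Tnfrsf4 (next 1.80), 1.38 of Tnfsf11 (next 0.419) and 4.72 of Tnfsf8 (next 2.04). All but Tnfrsf13c were below the filter.

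Chow replicate 8 stood apart in 7 sets. It held 2.14 of Tnfrsf10b (next chow liver 1.1), 0.407 of Tnfrsf8 (next 0.156), 1.53 of Tnfrsf9 (next 0.440), 0.814 of Tnfsf11 (next 0.311), 0.814 of Tnfsf4 (next 0.137) and 1.73 of Tnfsf8 (next 0.718). Its ratio of Tnfrsf10b over Tnfrsf22 and Tnfrsf23 was 1.31 (next 0.424).

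Western diet replicate 4 held 262 of Tnfrsf1a (next 168) and 48.5 of Tnfrsf21 (next 34.7). Western diet replicate 3 held 1.30 of Tnfsf15 (next 0.461), chow replicate 2 held 1.32 of Tnfrsf25 (next 0.651), and chow replicate 9 held 1.22 of Tnfsf14 (next 0.712). The ratio of Tnfrsf11a over Tnfrsf11b was 3.76 in western diet replicate 2 (next 2.22).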

How the results depend on the processing

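Over 26 alternatives, 464 values of the 18 tested members were computed; 441 kept their direction and their side of the threshold, 12 lost the call, 11 gained it and none changed sign. Of the 13 members that rose, 11 kept the call under all alternatives in which they were tested, and Tnfsf10 and Tnfrsf26 did not. The members that rose numbered 13 with RLE factors, 15 with library size alone, 15 with DESeq2 and 14 with limma-voom. Leaving out 1 library gave 11 to 15 members that rose and 0 to 0 that fell, and over all genes 3066 to 3361 that rose and 2816 to 3253 that fell. With library size alone 1615 genes fell, against 3122 with TMM factors. No paired analysis was possible because replicate numbers were given in accession order and link no western diet mouse to a chow mouse. At 3604212 to 9071908.5 counts per library, 13 members lay below the filter.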
